A study of Saccharomyces cerevisiae with 4 samples.

Results

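The genes described here code for the enzymes that modify transfer RNA in budding yeast, together with the accessory subunits and regulators of those enzymes. A list of 44 genes was taken: methyltransferases, deaminases, wybutosine enzymes, pseudouridine and dihydrouridine synthases, an isopentenyl transferase, Elongator with its regulators, and the wobble base thiolation pathway. The annotation of the probe sets names 41 of them by the listed symbol. Another 2 were matched through the gene ID, TRM61 under its name GCD14 and TRM140 under its name ABP140. IKI3, the largest Elongator subunit, was not analysed here. This gives 43 genes, each read from 1 probe set, of 5430 genes compared.

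The study hybridised total RNA of log-phase yeast grown in YPD, a rich medium, to Affymetrix arrays, with 1 array in each of 4 groups. They are hsp30Δ at 40 °C for 30 min, hsp30Δ at 30 °C, BY4741 at 40 °C for 30 min and BY4741 at 30 °C. BY4741 is a laboratory strain of mating type a with the alleles his3Δ1, leu2Δ0, met15Δ0 and ura3Δ0, and hsp30Δ is the same strain with HSP30 replaced by the kanMX marker (hsp30Δ::kanMX), so all groups share the parent's alleles. HSP30 codes for a membrane protein that restrains the proton pump Pma1. The sources used here do not say how many cultures or clones lie behind an array, and no group has a replicate.

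Values are log2 expression values as the authors deposited them. A difference of 1 is 2-fold, and the levels of different genes are not set against each other, since probes differ in brightness. The medians of the arrays lay between 11.12 and 11.19. The 32 probe sets for fission yeast genes, used as a background, reached 2.84 on BY4741 30 °C and 2.61 on each of the other arrays, and all 43 genes read above 2.84 on every array. HSP30 read 15.91 at 40 °C and 15.18 at 30 °C on the arrays labelled hsp30Δ, against 14.18 at 40 °C and 15.51 at 30 °C on BY4741. The signal of the deleted gene thus did not mark the deletion: hsp30Δ minus BY4741 was 1.74 log2 units at 40 °C and -0.33 at 30 °C. Of the genes altered in the parent, MET17 (the MET15 gene) read 1.95 on all 4 arrays, the lowest value of each. HIS3 read between 9.95 and 12.36. Where the probes lie was not checked here, so these values leave the hsp30Δ label unchecked. Strains are named by the label of the array throughout. The genes that mark mating type a read between 10.93 and 14.80 on all arrays, while the 4 genes that mark mating type alpha were not alike: the pheromone gene MF(ALPHA)1 read between 2.61 and 3.69 and MF(ALPHA)2 between 3.83 and 5.95, but the receptor gene STE3 read between 7.12 and 8.71 and the agglutinin gene SAG1 between 9.61 and 10.86.

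Transfer RNAs carry many chemically altered nucleotides. Those in the body of the molecule help it fold and keep it from decay, and those in the anticodon loop tune how codons are read and hold the reading frame. The wobble uridine, the anticodon base that pairs with the last base of a codon, is altered by Elongator, which starts the side chain, by Trm9 with Trm112, which methylate it, and by the thiolation pathway around the ubiquitin-like protein Urm1. Some of these enzymes work as pairs of proteins, of which only 1 carries the active site.

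**Figure D1:**
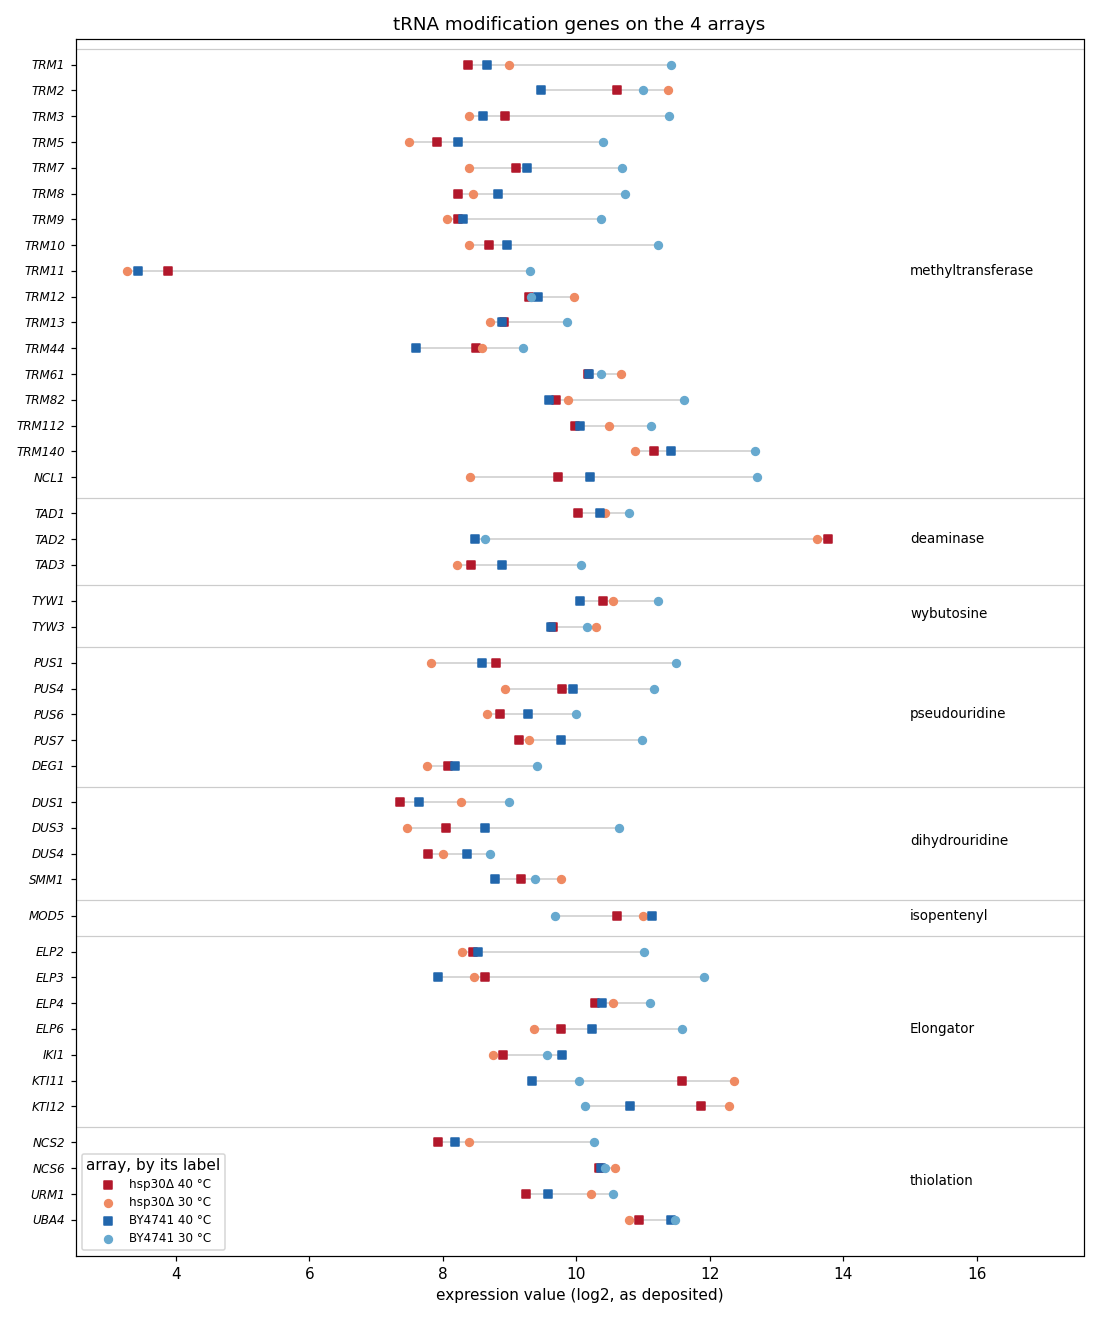
Log2 expression value (horizontal axis) of the 43 tRNA modification genes on each of the 4 arrays, grouped by role; each symbol is 1 array and the grey line spans the 4 values. For 32 genes the light blue circle, BY4741 30 °C, lies farthest to the right, while TAD2, KTI11 and KTI12 have both arrays labelled hsp30Δ on the right.

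Most tRNA modification genes read highest on BY4741 30 °C and lower on the other arrays. BY4741 30 °C was the highest of the 4 arrays for 32 of 43 genes, against 34.7% of all genes, and it was at least 2-fold above each of the other arrays for 21, against 13.6% of all genes. In BY4741, 26 of 43 genes were at least 2-fold lower at 40 °C, where 18.8% of all genes were that much lower, and 1 gene, MOD5, was at least 2-fold higher, where 18.9% of all genes were. The median difference of 40 °C minus 30 °C was -1.21 log2 units over the 43 genes and 0.13 over all genes. In bulk RNA, fewer cells with a transcript and less of it per cell cannot be told apart.

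On the arrays labelled hsp30Δ the same genes differed little between the temperatures, as did most of all genes. At 40 °C only NCL1 was at least 2-fold higher than at 30 °C, where 1.62% of all genes were, and 0 of 43 were at least 2-fold lower, where 1.57% of all genes were. The median difference was -0.10 over the 43 genes and 0.01 over all genes. The range ran between -0.96 for URM1 and 1.31 for NCL1, where the 5th to 95th percentile of all genes ran between -0.71 and 0.71. Of the 43 genes 21 were higher and 22 lower, against 2783 and 2639 of all 5430 genes. PUS1, PUS4, TRM7 and TRM11 followed NCL1 upward at 0.97, 0.86, 0.69 and 0.61, and DUS1, KTI11, TRM2 and TRM12 followed URM1 downward at -0.91, -0.78, -0.76 and -0.67. The difference between the heat responses, hsp30Δ minus BY4741, was at least 2-fold upward for 24 of 43 genes, against 21.7% of all genes, and at least 2-fold downward for 2, MOD5 and KTI12, against 22.6%. It is made from the same 4 arrays as the single comparisons and adds no separate evidence.

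Between the strains at 30 °C, 23 of 43 genes were at least 2-fold lower under the hsp30Δ label, against 21.4% of all genes, and 4 were at least 2-fold higher (TAD2, KTI11, KTI12 and MOD5), against 23.2%. The median difference was -1.32 log2 units over the 43 genes and 0.11 over all genes. At 40 °C, 0 genes were at least 2-fold lower, against 3.59% of all genes, and 4 were higher (TAD2, KTI11, TRM2 and KTI12), against 6.7%, with medians of -0.14 over the 43 genes and 0.00 over all genes. The heat comparison in BY4741 and the strain comparison at 30 °C both subtract the BY4741 30 °C array, so for many genes both show the same high value. With 1 array a group these comparisons have no test.

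**Figure D2:**
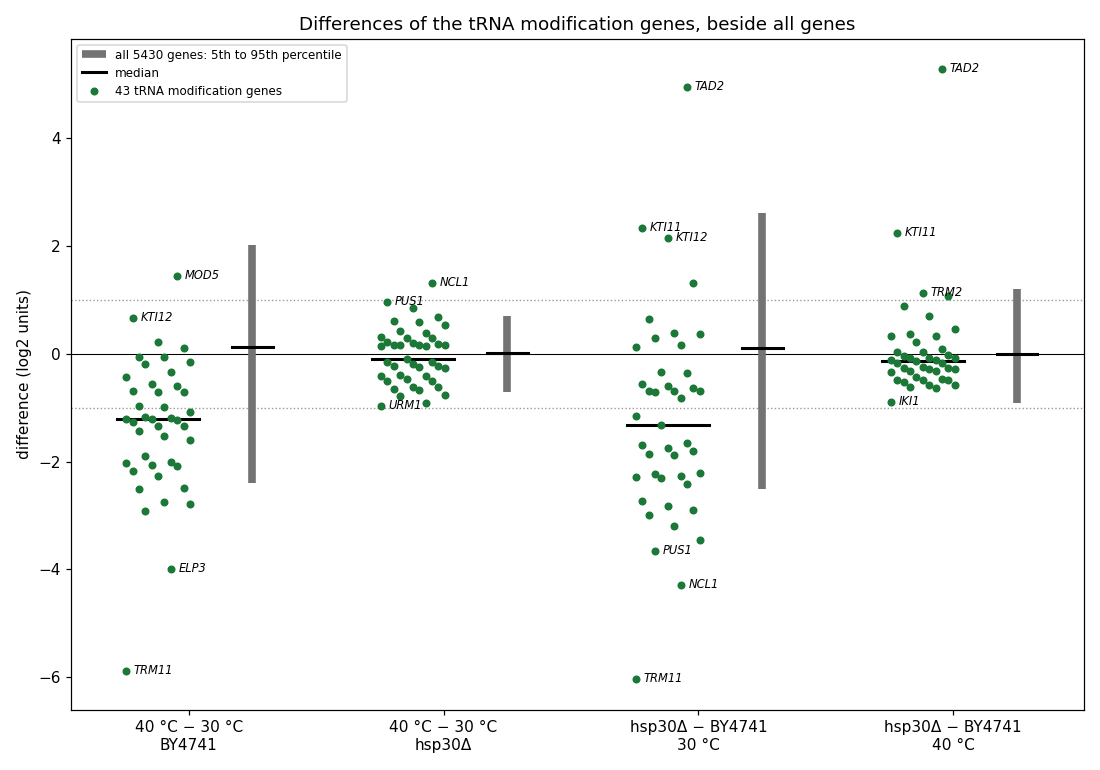
Difference in log2 units (vertical axis) of the 43 tRNA modification genes (green points, black line at their median) in the 4 single comparisons, each beside the range of the 5th to 95th percentile of all 5430 genes (grey bar, black line at the median); dotted lines mark 2-fold. The points lie mostly below 0 for heat in BY4741 and for the strains at 30 °C (medians -1.21 and -1.32), and TAD2 stands alone at 4.96 and 5.28 in the strain comparisons.

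TAD2 and TAD3 code for the partners of the enzyme that turns the wobble adenosine into inosine, with the active site in Tad2. TAD2 read 13.77 at 40 °C and 13.60 at 30 °C on the arrays labelled hsp30Δ, against 8.49 at 40 °C and 8.64 at 30 °C on BY4741. TAD2 was thus high on both arrays of the deletion label and the temperatures differed by less than 0.2 log2 units in either strain label. TAD3 read 8.42 at 40 °C and 8.21 at 30 °C on the arrays labelled hsp30Δ, against 8.89 at 40 °C and 10.08 at 30 °C on BY4741. The transcripts of these partners therefore lay in opposite directions between the strains, at 4.96 log2 units (31.2-fold higher) for TAD2 and -1.86 for TAD3 at 30 °C. TAD1, the deaminase of the adenosine beside the anticodon of alanine tRNA, kept within 0.76 log2 units over all arrays.

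A test across all genes was possible only for a difference shared by both temperatures or by both strain labels, since strain and temperature as additive terms leave 1 residual degree of freedom per gene. In limma, TAD2 rose on the arrays labelled hsp30Δ by 5.12 log2 units (SE 0.57, adjusted p 0.0313), 1 of 43 genes, where 0.203% of all genes passed upward. No tRNA modification gene passed downward, as for all genes (0%), and at an unadjusted p under 0.05 limma gave 3 of the 43 genes upward and 2 downward (305 and 140 of all genes). The call for TAD2 ends when each array is centred on its median (adjusted p 0.0639) or when no dim gene is left out (0.0804). For heat 0 of 43 genes and 0% of all genes passed in either direction. At an unadjusted p under 0.05 limma gave 0 of 43 upward and 1 downward, TRM1 (52 and 57 of all genes).

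Elongator starts the side chain of the wobble uridine. Its core holds IKI3, the repeat protein ELP2 and the catalytic subunit ELP3, and ELP4, ELP6 and IKI1 form a ring beside the core. ELP3 read 8.63 at 40 °C and 8.47 at 30 °C on the arrays labelled hsp30Δ, against 7.92 at 40 °C and 11.92 at 30 °C on BY4741. ELP2 read 8.45 at 40 °C and 8.29 at 30 °C on the arrays labelled hsp30Δ, against 8.52 at 40 °C and 11.02 at 30 °C on BY4741. For both core genes the BY4741 30 °C array stood alone, and the strains at 30 °C differed by -3.45 log2 units for ELP3 (10.9-fold lower on the array labelled hsp30Δ) and -2.73 for ELP2.

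The genes of the ring differed less. ELP6 read 9.76 at 40 °C and 9.37 at 30 °C on the arrays labelled hsp30Δ, against 10.24 at 40 °C and 11.58 at 30 °C on BY4741. ELP4 read 10.28 at 40 °C and 10.54 at 30 °C on the arrays labelled hsp30Δ, against 10.39 at 40 °C and 11.10 at 30 °C on BY4741. IKI1 read 8.90 at 40 °C and 8.75 at 30 °C on the arrays labelled hsp30Δ, against 9.79 at 40 °C and 9.56 at 30 °C on BY4741. IKI1 was the lowest of the 43 genes in the strain comparison at 40 °C, at -0.89, and, unlike the other 4 measured subunits, was not highest on BY4741 30 °C.

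KTI11 and KTI12, which regulate Elongator, lay in the opposite direction to its subunits between the strains at 30 °C. KTI11, a small iron protein that also serves diphthamide synthesis, read 11.59 at 40 °C and 12.37 at 30 °C on the arrays labelled hsp30Δ, against 9.34 at 40 °C and 10.03 at 30 °C on BY4741. KTI12, a nucleotide-binding protein that associates with Elongator, read 11.87 at 40 °C and 12.29 at 30 °C on the arrays labelled hsp30Δ, against 10.80 at 40 °C and 10.13 at 30 °C on BY4741. Both arrays labelled hsp30Δ lay above both BY4741 arrays for 3 of 43 genes, these 2 and TAD2, against 26.2% of all genes. Fitted over both temperatures, KTI11 was 2.29 log2 units higher (SE 0.57) and KTI12 1.61 (SE 0.60), and neither passed in limma (adjusted p 0.332 and 0.573). KTI11 is the only one of the 43 genes whose systematic name carries a suffix (YBL071W-A), a class looked at after its value was seen. Of 241 genes with such names 36.1% were at least 2-fold higher on the array labelled hsp30Δ at 30 °C and 19.5% at 40 °C, against 22.6% and 6.11% of 5186 genes without a suffix, and the part of this in the KTI11 value was not tested.

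**Figure D3:**
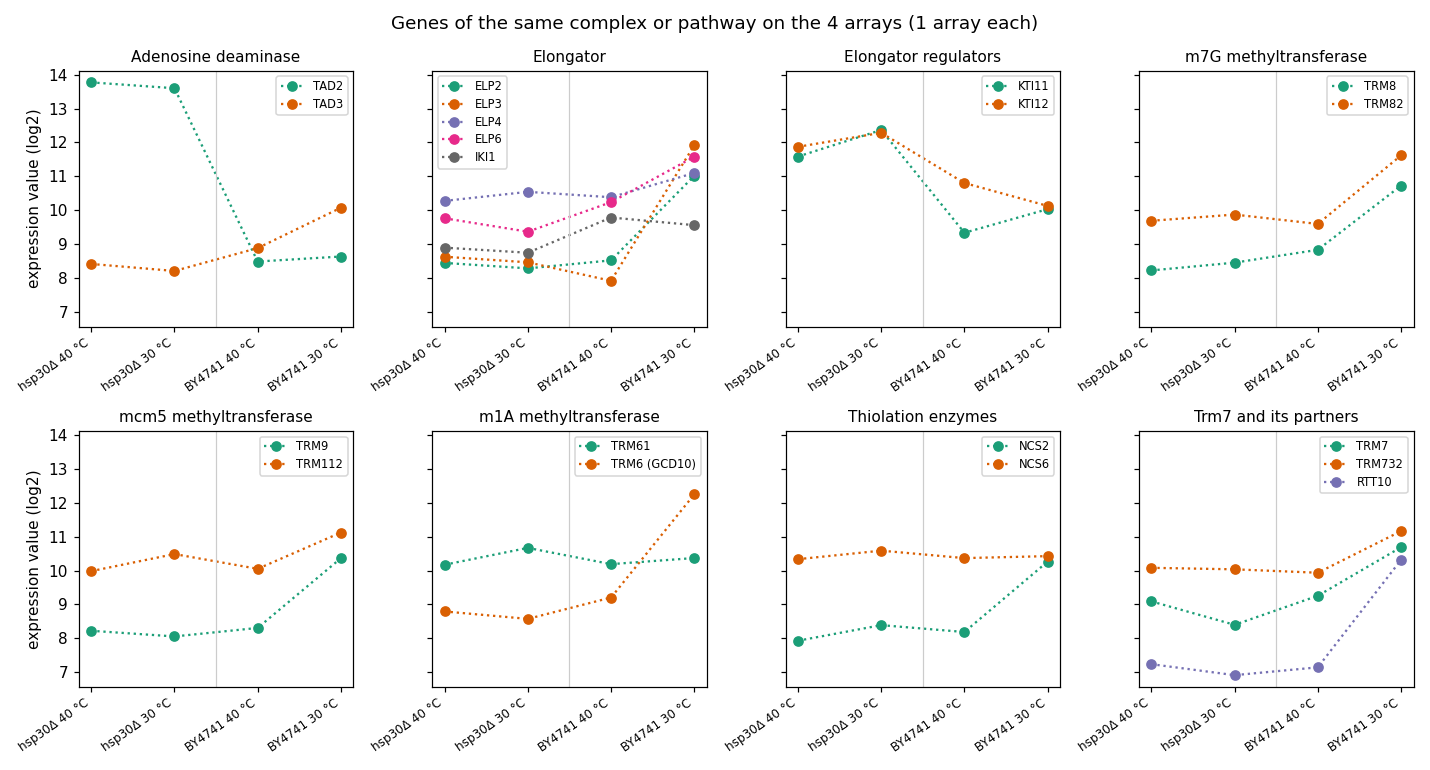
Log2 expression value (vertical axis) of genes of the same complex or pathway on the 4 arrays (horizontal axis; 1 array each, dotted lines only join a gene's values, the grey line divides the strain labels). TAD2 lies at 13.77 and 13.60 on the arrays labelled hsp30Δ while its partner TAD3 is lowest there, ELP2 and ELP3 are farther below their BY4741 30 °C value than ELP4 and IKI1, and TRM61 and NCS6 stay level while their partners TRM6 and NCS2 do not.

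In the thiolation pathway Uba4 activates Urm1, which hands sulfur to the Ncs2 and Ncs6 pair acting on the tRNA. NCS2 read 7.93 at 40 °C and 8.39 at 30 °C on the arrays labelled hsp30Δ, against 8.19 at 40 °C and 10.26 at 30 °C on BY4741. NCS6 read 10.34 at 40 °C and 10.59 at 30 °C on the arrays labelled hsp30Δ, against 10.37 at 40 °C and 10.43 at 30 °C on BY4741, the smallest range of the 43 genes (0.25 log2 units). NCS2 was thus high on BY4741 30 °C while NCS6 was level. URM1 read 9.25 at 40 °C and 10.21 at 30 °C on the arrays labelled hsp30Δ, against 9.57 at 40 °C and 10.55 at 30 °C on BY4741, and was lower at 40 °C under both labels (-0.96 and -0.98). UBA4 spanned 0.68 log2 units. Of these 4 genes only NCS2 was past 2-fold in any comparison. It was at least 2-fold lower for heat in BY4741 and for the strains at 30 °C, where 18.8% and 21.4% of all genes were. A count of 1 of 4 is near these shares.

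Of the 17 methyltransferase genes, with their partner subunits, 14 were at least 2-fold lower at 40 °C in BY4741 and 12 at least 2-fold lower in the 30 °C strain comparison, where 18.8% and 21.4% of all genes were, with medians of -1.89 and -2.27. TRM11, the catalytic subunit of an enzyme that methylates guanosine in the body of many tRNAs, read 3.88 at 40 °C and 3.27 at 30 °C on the arrays labelled hsp30Δ, against 3.43 at 40 °C and 9.31 at 30 °C on BY4741. Its 3 low values lie close to the fission yeast probe sets, so that the sizes, -5.88 for heat in BY4741 and -6.04 for the strains at 30 °C, are not exact. Only 2 of all 5430 genes had a lower heat difference in BY4741. NCL1, which methylates cytosines in many tRNAs, read 9.72 at 40 °C and 8.41 at 30 °C on the arrays labelled hsp30Δ, against 10.20 at 40 °C and 12.71 at 30 °C on BY4741. NCL1 was the only one of the 43 genes at least 2-fold apart between the temperatures under both labels, in opposite directions (1.31 and -2.50). How many of all genes were so was not counted here.

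The genes of other enzymes that methylate the tRNA body differed in size and in pattern. TRM3, a ribose methyltransferase of the D loop, read 8.94 at 40 °C and 8.39 at 30 °C on the arrays labelled hsp30Δ, against 8.60 at 40 °C and 11.39 at 30 °C on BY4741. TRM1, which dimethylates a guanosine between the D stem and the anticodon stem, read 8.38 at 40 °C and 8.998 at 30 °C on the arrays labelled hsp30Δ, against 8.67 at 40 °C and 11.41 at 30 °C on BY4741. TRM10, which methylates a guanosine near the acceptor stem, was -2.27 for heat in BY4741 and -2.83 for the strains at 30 °C. TRM13, a ribose methyltransferase of the acceptor stem, was -0.97 and -1.15 in these comparisons. TRM2, which makes ribothymidine in the T loop, read 10.61 at 40 °C and 11.38 at 30 °C on the arrays labelled hsp30Δ, against 9.47 at 40 °C and 11.004 at 30 °C on BY4741, so that hsp30Δ 30 °C was its highest array. TRM44, a uridine ribose methyltransferase, read 8.50 at 40 °C and 8.59 at 30 °C on the arrays labelled hsp30Δ, against 7.60 at 40 °C and 9.20 at 30 °C on BY4741, so that BY4741 40 °C was its lowest array.

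The paired methyltransferases gave both like and unlike partners. TRM8 and TRM82, the catalytic and the structural subunit of the enzyme that makes 7-methylguanosine, were close in both large comparisons, at -1.89 and -2.02 for heat in BY4741 and -2.27 and -1.74 for the strains at 30 °C. TRM8 read 8.23 at 40 °C and 8.46 at 30 °C on the arrays labelled hsp30Δ, against 8.83 at 40 °C and 10.73 at 30 °C on BY4741. TRM82 read 9.69 at 40 °C and 9.87 at 30 °C on the arrays labelled hsp30Δ, against 9.60 at 40 °C and 11.62 at 30 °C on BY4741. TRM112, which activates Trm9, Trm11 and further methyltransferases, was closer to 0 than the genes of both tRNA partners for heat in BY4741 (-1.07) and for the strains at 30 °C (-0.63). It read 9.98 at 40 °C and 10.49 at 30 °C on the arrays labelled hsp30Δ, against 10.05 at 40 °C and 11.12 at 30 °C on BY4741. TRM9 read 8.22 at 40 °C and 8.06 at 30 °C on the arrays labelled hsp30Δ, against 8.31 at 40 °C and 10.36 at 30 °C on BY4741. The other partners of Trm112, which act on ribosomal RNA (BUD23) and on a translation release factor (MTQ2), were at -0.87 and -0.24 for heat in BY4741 and at 1.14 and -0.02 for the strains at 30 °C. BUD23 was thus 2.20-fold higher on the array labelled hsp30Δ at 30 °C, where TRM112 was lower.

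TRM61 and TRM6 code for the catalytic and the binding subunit of the enzyme that methylates adenosine in the T loop, which initiator methionine tRNA needs for stability. TRM61 read 10.17 at 40 °C and 10.67 at 30 °C on the arrays labelled hsp30Δ, against 10.19 at 40 °C and 10.37 at 30 °C on BY4741, a range of 0.50 log2 units. TRM6, listed as GCD10 and not among the 43 genes, read 8.79 at 40 °C and 8.57 at 30 °C on the arrays labelled hsp30Δ, against 9.20 at 40 °C and 12.25 at 30 °C on BY4741. The catalytic subunit gene was thus nearly level while its partner was -3.04 for heat in BY4741 and -3.67 for the strains at 30 °C.

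TRM7, a ribose methyltransferase of the anticodon loop, read 9.09 at 40 °C and 8.40 at 30 °C on the arrays labelled hsp30Δ, against 9.26 at 40 °C and 10.69 at 30 °C on BY4741. It was -1.43 for heat in BY4741 and -2.29 for the strains at 30 °C. Its partner genes TRM732 and RTT10, both outside the 43, were -1.23 and -3.17 for heat and -1.13 and -3.40 for the strains. TRM140, which methylates cytidine in that loop, was -1.27 and -1.81, with the limit that its gene also codes for an actin-binding part and where the probes lie was not checked here.

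Wybutosine, the bulky base beside the anticodon of phenylalanine tRNA, is built in steps. TRM5, which methylates the guanosine at its start and also serves other tRNAs, read 7.91 at 40 °C and 7.49 at 30 °C on the arrays labelled hsp30Δ, against 8.22 at 40 °C and 10.40 at 30 °C on BY4741. The genes of the steps that follow differed less. TRM12 read 9.29 at 40 °C and 9.96 at 30 °C on the arrays labelled hsp30Δ, against 9.43 at 40 °C and 9.32 at 30 °C on BY4741. TYW1, the iron-sulfur enzyme of the next step, was -1.17 for heat in BY4741 and -0.68 for the strains at 30 °C, TRM12 0.11 and 0.65, and TYW3 -0.55 and 0.13. PPM2, the last enzyme of the path and not among the 43 genes, was -0.62 and -0.72.

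Pseudouridine synthases turn uridine into its isomer. All 5 genes were lower at 40 °C in BY4741 (4 at least 2-fold) and at least 2-fold lower in the 30 °C strain comparison, where 18.8% and 21.4% of all genes were that much lower. PUS1, which acts on several tRNA sites and on other RNAs, read 8.79 at 40 °C and 7.83 at 30 °C on the arrays labelled hsp30Δ, against 8.58 at 40 °C and 11.49 at 30 °C on BY4741. PUS7, which also acts on messenger RNA and small nuclear RNA, read 9.14 at 40 °C and 9.29 at 30 °C on the arrays labelled hsp30Δ, against 9.77 at 40 °C and 10.98 at 30 °C on BY4741. For both, BY4741 30 °C was the highest array. PUS4, which makes the nearly universal pseudouridine of the T loop, read 9.78 at 40 °C and 8.93 at 30 °C on the arrays labelled hsp30Δ, against 9.95 at 40 °C and 11.16 at 30 °C on BY4741. DEG1 was -1.23 for heat in BY4741 and -1.65 for the strains at 30 °C, and PUS6 -0.71 and -1.32. At 40 °C the strains differed by between -0.63 (PUS7) and 0.21 (PUS1), so that none of the 5 genes was past 2-fold there. Few of all genes were: 3.59% were at least 2-fold lower and 6.7% higher.

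Dihydrouridine synthases reduce uridines, mostly in the D loop, and their genes were not alike. DUS3 read 8.05 at 40 °C and 7.46 at 30 °C on the arrays labelled hsp30Δ, against 8.64 at 40 °C and 10.65 at 30 °C on BY4741. DUS1 read 7.37 at 40 °C and 8.27 at 30 °C on the arrays labelled hsp30Δ, against 7.64 at 40 °C and 8.99 at 30 °C on BY4741, and was lower at 40 °C under both labels. DUS4 read 7.78 at 40 °C and 8.003 at 30 °C on the arrays labelled hsp30Δ, against 8.36 at 40 °C and 8.70 at 30 °C on BY4741, and SMM1 spanned 0.99 log2 units. Of the 4 genes only DUS3 was at least 2-fold lower between the strains at 30 °C, where 21.4% of all genes were, so this count is near that share. For heat in BY4741 2 of the 4, DUS1 and DUS3, were at least 2-fold lower, against 18.8% of all genes.

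MOD5, which adds an isopentenyl group beside the anticodon of a few tRNAs, read 10.61 at 40 °C and 11.01 at 30 °C on the arrays labelled hsp30Δ, against 11.13 at 40 °C and 9.68 at 30 °C on BY4741. It was the single gene of the 43 at least 2-fold higher for heat in BY4741 (2.73-fold), and its lowest array was the one on which most of the other genes were highest.

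**Figure D4:**
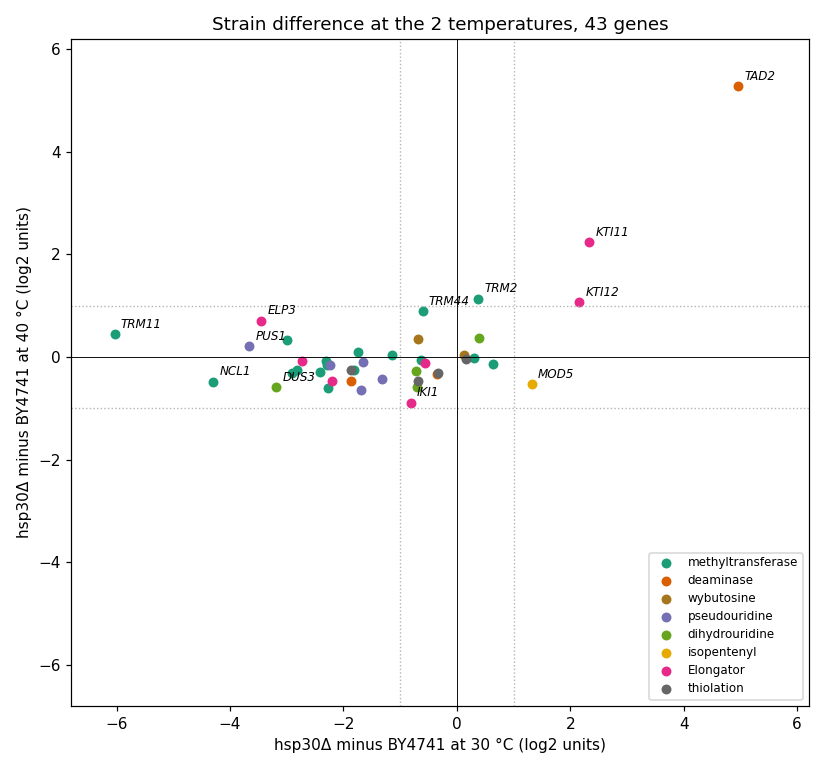
Strain difference, hsp30Δ minus BY4741, at 30 °C (horizontal axis) and at 40 °C (vertical axis), in log2 units, for the 43 genes coloured by role; the axes share no array and dotted lines mark 2-fold. TAD2 (4.96 and 5.28) and KTI11 (2.33 and 2.25) lie near equal values at both temperatures, while TRM11 (-6.04 and 0.45) and NCL1 (-4.29 and -0.48) are far from 0 at 30 °C and within 0.5 of it at 40 °C.

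The strain differences at the 2 temperatures, which share no array, had opposite signs for 12 of 43 genes, 27.9%, against 41.1% of all genes. Both arrays labelled hsp30Δ lay below both BY4741 arrays for 18 of 43 genes, against 22.5% of all genes. Among them were NCL1, DUS3, PUS7, ELP2, ELP6, IKI1, TRM5 and TRM8. Both counts take differences of any size. ELP2 was only -0.07 at 40 °C, and 0 of 43 genes were at least 2-fold lower there, against 3.59% of all genes. DUS3 (-3.19 at 30 °C and -0.59 at 40 °C) and TRM8 (-2.27 and -0.61) were among the 5 lowest of the 43 genes at 40 °C, with PUS7 (-0.63), IKI1 and DUS4 (-0.58).

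A further list of 31 tRNA modification genes outside the 43 held 9 genes at least 2-fold lower and 2 higher for heat in BY4741 (median -0.47), where 18.8% of all genes were lower and 18.9% higher. For the strains at 30 °C it held 12 lower and 1 higher (median -0.715), against 21.4% and 23.2% of all genes. On the arrays labelled hsp30Δ 1 gene of that list was at least 2-fold lower at 40 °C and 0 higher (1.57% and 1.62% of all genes), and between the strains at 40 °C 2 were lower and 0 higher (3.59% and 6.7%). KRE33, which acetylates cytidine in tRNA and ribosomal RNA, was the lowest, at -4.23 for heat in BY4741 and -4.92 for the strains at 30 °C. Its tRNA adaptor gene TAN1 was at -1.32 and -2.75.

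Beside these, 39 ribosome biogenesis genes were all at least 2-fold lower for heat in BY4741 (median -3.50) and for the strains at 30 °C (median -2.97), where 18.8% and 21.4% of all genes were. Of 19 cytosolic tRNA synthetase genes 17 and 18 were that much lower (medians -1.72 and -2.09). On the arrays labelled hsp30Δ the synthetase genes were at a median of 0.63 for 40 °C minus 30 °C, with 18 of 19 higher. The ribosome biogenesis genes were at -0.20 with 17 of 39 higher, and the 43 tRNA modification genes at -0.10 with 21 of 43 higher. All genes were at 0.01 with 2783 of 5430 higher. At least 2-fold lower were 5 ribosome biogenesis and 0 synthetase genes, against 1.57% of all genes. That much higher were 1 and 2, against 1.62%. The medians of the 3 lists are a description, and the differences between them were not tested.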

How the data were processed

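Total RNA of 4 yeast groups was hybridised to 1-colour Affymetrix arrays, 1 array a group. The deposited values are log2 expression values normalized by the authors. GCRMA and MAS5 are named in the submitters' processing notes, with no version, role or order, and the probe set filter is not given in the sources used here. That the base is 2 was read from the range of the values. The table holds 5802 probe sets and 0 columns of other samples.

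Probe sets were paired with genes through the gene ID of the platform annotation and the RefSeq gene table (assembly R64, names and neighbours only). A gene was read from its brightest probe set. Background was the 95th percentile of 32 fission yeast probe sets on each array (median over arrays 1.96), which was also the lowest value allowed in a difference, and genes never above it were left out, leaving 5430. Single comparisons, counted at 2-fold, have no test.

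limma (3.58.1, R 4.3.3; lmFit, eBayes) was fitted to the log2 values of all genes with strain and temperature as additive terms, Benjamini-Hochberg adjusted, threshold 0.05. It was tested on simulated data with noise drawn independently for each array, so the test does not cover a single array that stands apart. Recovery of changed genes was required only for a large change at a spread smaller than the fitted one. Its SE rest mostly on a spread pooled over all genes (prior degrees of freedom 6.02, against 1 residual degree of freedom per gene). The gene's own part measures how far the strain difference disagrees between the temperatures, which is also how far the heat difference disagrees between the strain labels. Neither part measures the spread between cultures. Precision is limited by the number of arrays.

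The genes and lists were chosen with earlier results of these data known. Values on all arrays were given for genes past a limma term, the 5 highest and 5 lowest in each of the 4 single comparisons and subunits of named complexes, with up to 3 genes of each other list. TAN1, PPM2, TRM732 and SEN15 were named for their role beside that rule after values were seen. All 4 genes that mark mating type alpha were also given. The planned search for promoter motifs was not run, since no sequence was used here.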

Additional observations from a re-analysis of the deposited data

Results flagged for a closer look

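NCL1 is picked out because its heat difference was at least 2-fold under both strain labels and of opposite sign: 1.31 log2 units on the arrays labelled hsp30Δ and -2.50 on BY4741, a difference of 3.82. With 1 array a group this difference was not tested, and it includes the high BY4741 30 °C value, 12.71. The signs of the heat responses were opposite for 23 of 43 genes, 53.5%, against 57.3% of all genes. These shares take signs at any size, and the share of all genes that meet the 2-fold rule was not counted here.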

How the results depend on the processing

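Counts past 2-fold and medians were recomputed with quantile normalization, median centring, other floors, other probe set rules and, for counts, other folds. Under quantile normalization 4 of 43 genes (2 higher, 2 lower) were at least 2-fold apart for heat on the arrays labelled hsp30Δ, and the median was -0.27 for the strains at 40 °C and 1.05 for the difference of the heat responses (main value 1.18). At 1.5-fold 14 genes were apart for heat on the arrays labelled hsp30Δ and 10 for the strains at 40 °C. At 3-fold these counts were 0 and 2, with 15 for heat in BY4741. The shares of all genes at these folds and under quantile normalization were not counted here, so these counts are not set against all genes. In limma's strain term 0 of 43 genes, and 0 of all genes, passed under median centring and with no filter on dim genes. Of all genes 6 passed where every array had to exceed the highest fission yeast probe set, a fit with fewer genes, and 110 (80 upward, 30 downward) under quantile normalization, where TAD2 was again the only one of the 43 to pass (adjusted p 3.23e-05). The adjusted p of TAD2 ran up to 0.0804 over the alternatives, and that of KTI11 between 0.0631 and 0.446. The cause of these moves was not tested. The other 88 planned values kept their direction or stayed at 0, and stayed within 1.5 times (counts) or 0.1 log2 units (medians). Many of them could not move. Each of the 43 genes has 1 probe set, without a suffix, and reads above 2.84 on every array. The other floors and probe set rules therefore left the fold counts and medians of the 43 genes unchanged by construction. So did 10 with the 41 genes matched by symbol alone, chosen after seeing the data. No paired analysis was possible because each group has 1 array and the labels give no replicate numbers. Values near the fission yeast probe sets, here TRM11, carry no exact size.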

Other observations

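Genes that cut, join and export tRNA were mixed. Of 13 such genes, 6 were at least 2-fold lower and 1 higher for heat in BY4741, where 18.8% of all genes were lower and 18.9% higher. For the strains at 30 °C 7 were lower and 1 higher, against 21.4% and 23.2% of all genes. LOS1, the tRNA exportin, was -2.55 and -2.99, and SEN34, a subunit of the splicing endonuclease, -2.50 and -2.07. SEN15, another subunit of that enzyme, was 0.53 and -0.72. RPM2, which codes for the protein of mitochondrial RNase P, was 2.35 for heat in BY4741 and 2.56 for the strains at 30 °C.

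The genes beside TAD2 in the reference gene order did not share its values. SNX4 was 1.12 for the strains at 30 °C and -0.66 at 40 °C, and KAR2 0.35 and 0.43, where TAD2 was 4.96 and 5.28. KAR2 read between 15.35 and 15.78, near the highest values of the arrays. TRM13 lies beside TRM11 and was -1.15 for the strains at 30 °C, and HRP1, on the other side, was -0.42. Beside PUS1, the ribosome assembly gene NIP7 was -3.78 for heat in BY4741 and -4.76 for the strains at 30 °C, and LEA1, on the other side, was 0.42 and 0.41. Both neighbours of DUS3 were higher on the array labelled hsp30Δ at 30 °C, BDF1 by 1.69 and SFP1 by 1.79, where DUS3 was -3.19. In that comparison the neighbours of NCL1 (-4.29) were 0.33 (RRN10) and -0.20 (MCM2). Those of ELP3 (-3.45) were 0.43 (YDC1) and 0.66 (SEC16).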
